A study of Mus musculus with 12 samples.

Results

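The ileum of mice null for NADPH-cytochrome P450 reductase (POR) was compared with that of wild-type mice when both had eaten quercetin, a flavonol of fruits and vegetables. The comparison used the 6 quercetin arrays of a series of 12, 3 arrays labelled POR-null and 3 labelled wild type, taken by those labels. All mice were C57BL/6 males aged 6 to 8 weeks that were adapted for 14 days to RM3 (E), a soya-free powdered diet. The quercetin groups then received this diet with 6.2 g quercetin per kg, equal to 7 mg per mouse, and tissue was taken at 24 h. The other 6 arrays, 3 per genotype, came from mice on the same diet without quercetin and are called control. Each array carried RNA pooled from 3 mice, scraped from the epithelial side of the last of 3 equal parts of the small intestine. The labels do not say in which cells the reductase was deleted, and Por itself is not analysed here, which leaves the genotype labels without a check on the targeted gene.

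POR hands electrons from NADPH to the P450 enzymes of the endoplasmic reticulum, which modify drugs and dietary compounds and also make bile acids and sterols. Several P450 and other steps of cholesterol synthesis, among them lanosterol demethylation by CYP51 and squalene epoxidation by SQLE, draw on this supply. In the ileum, absorbed bile acids bind the nuclear receptor FXR and induce the hormone FGF15, which tells the liver to make less bile acid. Cells that hold much sterol also activate LXR, which raises the sterol exporter ABCA1 and the ubiquitin ligase MYLIP, by which the LDL receptor is degraded, while cells short of sterol activate SREBP2, which raises the enzymes of cholesterol synthesis. The ileum is also rich in lymphoid tissue, so scrapings hold B cells, T cells and plasma cells beside enterocytes.

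Values are log2 levels, and each difference is POR-null minus wild type with its standard error (SE) from 1 limma model of all 12 arrays. Adjusted p-values are by Benjamini-Hochberg over 22626 probe sets, and a gene stands for its brightest probe set (12393 genes). The epithelial markers Vil1 (12.11 to 12.32) and Epcam (12.41 to 12.71) and the ileal marker Fabp6 (12.05 to 12.75) were among the brightest genes on all 6 arrays. Wild-type quercetin replicate 2 stood apart in the colon markers: Car1 was at 10.17 there and between 6.04 and 7.54 on the other 11 arrays, and Aqp8 was at 6.63 against 4.86 to 5.38. Smooth muscle genes were also mostly higher in POR-null. The mean of 14 of them, after centring each gene, on the quercetin arrays was -0.53, 0.32 and -0.72 for wild type against 0.32, 0.65 and 0.05 for POR-null. Their median difference was 0.73 on quercetin and 0.72 on control, and 13 of 14 were higher in POR-null on each diet. At an unadjusted limma p under 0.05, 3 of them were higher on quercetin (4.03% of all genes) and 4 on control (507 of 12393 genes). With 1 quercetin array left out the count on quercetin ran from 0 to 10, the 10 without wild-type replicate 2. On quercetin no member was without overlap, and the median ran from 0.44 without wild-type quercetin replicate 3 to 1.17 without replicate 2. With all probe sets of a gene averaged it was 0.38. Of 13 genes of stroma and endothelium 12 were higher on quercetin (median 0.06) and 9 on control (median 0.13). With 1 quercetin array left out, 8 to 10 were higher on quercetin. Their mean centred level on quercetin was 0.02, 0.06 and -0.10 for wild type against 0.08, 0.10 and 0.08 for POR-null. The part of any of these patterns in the results below was not tested.

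No probe set passed an adjusted p of 0.05 between POR-null and wild type on quercetin (0 of 22626, 0%, limma with Benjamini-Hochberg; smallest adjusted p 0.132). With a variance trend and robust eBayes 5 probe sets did (Cd79a, Cd79b, C1qtnf12 and 2 without a single gene symbol), and with only the 6 quercetin arrays 2 did (Abca1 and Susd2). At an unadjusted p under 0.05 there were 1585 probe sets, 875 higher and 710 lower in POR-null, where 1131 would be counted if none differed. With 1 array left out the count ran from 1126, below that number, to 1862. Of the genes, 500 (4.03%) were higher and 423 (3.41%) lower at that p. Without wild-type quercetin replicate 1 these counts were 564 and 432, without replicate 2 427 and 337, and without replicate 3 340 and 398. Without POR-null quercetin replicate 1 they were 298 and 360, without replicate 2 446 and 340, and without replicate 3 583 and 473. They are the background for list counts with the same array left out. The 3 arrays of each genotype did not overlap for 940 genes that were higher (7.58%) and 664 that were lower (5.36%). In all, 56.1% of genes had a difference above 0 and 43.4% below 0, with a median of 0.02. Differences of single genes below are therefore given as values, with no gene called.

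**Figure D1:**
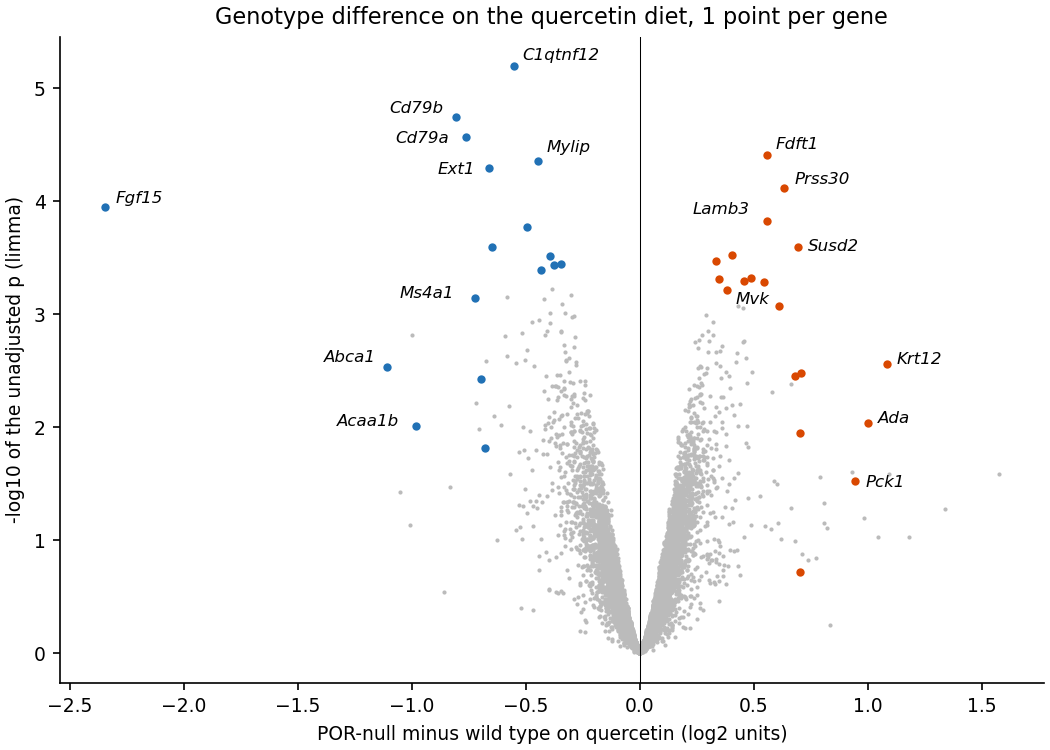
Difference between POR-null and wild-type mice on the quercetin diet (x axis, log2 units) against the -log10 of the unadjusted limma p (y axis), 1 point per gene; coloured points are the genes of smallest p or largest non-overlapping difference in each direction (orange higher, blue lower in POR-null), with some named. Fgf15 lies alone on the left at -2.35, and Cd79a, Cd79b, Ext1, Mylip and C1qtnf12 have the smallest p among lower genes and Fdft1 among higher genes.

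Of the 12 genes of smallest p on the higher side 2, Fdft1 and Mvk, encode enzymes of sterol synthesis. Of the 12 on the lower side 3 are B cell genes (Cd79b, Cd79a and Cxcr5), and Mylip and Fgf15 belong to sterol and bile acid sensing. Fdft1, squalene synthase, which makes the first sterol-committed intermediate, led the higher side. It stood at 8.85, 8.86 and 8.80 on the wild-type and 9.29, 9.36 and 9.54 on the POR-null arrays, a difference of 0.56 ± 0.09 (SE), or 1.47-fold (adjusted p = 0.141). The groups did not overlap, and on control the POR-null arrays were at 9.34, 9.05 and 9.04, all above the wild-type quercetin arrays. C1qtnf12, which encodes the secreted protein adipolin, had the smallest p of all genes: 10.34, 10.27 and 10.31 in wild type against 9.71, 9.71 and 9.84 in POR-null, a difference of -0.55 ± 0.08 (adjusted p = 0.132). It was lower on control too, by a difference of -0.23 ± 0.08. Its other 3 probe sets differed by -0.63 to -0.06.

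Among the other higher genes of small p, Prss30, a serine protease, was 10.09, 10.20 and 10.09 in wild type against 10.83, 10.80 and 10.65 in POR-null (0.63 ± 0.11), with 0.40 ± 0.11 on control. Lamb3, a chain of the basement membrane protein laminin-332, differed by 0.56 ± 0.11 on quercetin and 0.53 ± 0.11 on control, so the genotype difference was of similar size on both diets. Susd2, a membrane protein with a sushi domain, was tight within both groups (9.83, 9.86 and 9.86 against 10.55, 10.51 and 10.57) and differed by 0.69 ± 0.14. Deptor, an inhibitor that binds mTOR, was lowest in the wild-type quercetin arrays (7.25, 7.39 and 7.59), while POR-null quercetin (7.86 to 8.02), wild-type control (7.92 to 8.16) and POR-null control (7.66 to 8.17) lay above them. Its difference was 0.55 ± 0.12 on quercetin and -0.12 ± 0.12 on control. Edn3 (endothelin 3, 0.61 ± 0.14), Rdh16 (a retinol dehydrogenase, 0.49 ± 0.11), Arhgap35 (0.40 ± 0.08), Olfr544 (an olfactory receptor, 0.38 ± 0.09), Cdh13 (T-cadherin, 0.35 ± 0.08) and Mtfr1 (a regulator of mitochondrial fission, 0.34 ± 0.07) complete the higher genes apart from Mvk. The genotypes did not overlap for any of these 6 genes, where 7.58% of all genes were higher without overlap. As the 6 were chosen by small p in this contrast, that separation is no separate support. Their adjusted p ran from 0.286 to 0.388. The other 2 probe sets of Cdh13 differed by -0.06 and 0.17. Olfr544 and Cdh13 had low mean levels, 4.43 and 5.39, below the array medians of 5.91 to 5.96.

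On the lower side, Ext1, which polymerises heparan sulfate, stood at 8.82, 8.74 and 8.58 in wild type against 8.04, 8.18 and 7.94 in POR-null (-0.66 ± 0.11, adjusted p = 0.142). Slc25a37, the mitochondrial iron importer mitoferrin 1, differed by -0.49 ± 0.10 on quercetin and -0.03 ± 0.10 on control. Zfp36l1, which binds AU-rich mRNA and speeds its decay, differed by -0.65 ± 0.13, and its other probe set by -0.14. Tmx1, a thioredoxin-like protein of the endoplasmic reticulum, differed by -0.39 ± 0.08. Skil, a repressor of TGF-beta signalling, differed by -0.38 ± 0.08 on quercetin and -0.24 ± 0.08 on control, with -0.05 for its other probe set. B4galt4, a galactosyltransferase, differed by -0.43 ± 0.09 on quercetin and 0.18 ± 0.09 on control. The rest of the lower genes of small p (Cd79b, Cd79a, Cxcr5, Mylip and Fgf15) belong to groups described below.

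By size rather than p, the non-overlapping genes with the largest higher difference were Krt12, a keratin (6.37, 6.55 and 5.81 against 7.42, 7.34 and 7.22, 1.08 ± 0.30), and Ada, adenosine deaminase (10.75, 10.13 and 11.12 against 11.36, 11.72 and 11.92, 1.00 ± 0.33). Ada ran the other way on control, at -0.83 ± 0.33. Pck1, which encodes the cytosolic PEPCK of gluconeogenesis, was 8.23, 6.48 and 7.78 in wild type against 8.47, 8.28 and 8.58 in POR-null (0.95 ± 0.39). The low wild-type value is replicate 2, and without that array the difference was 0.44. With its other, dim probe set averaged in, it was 0.56. Cdr2 (0.71 ± 0.20), Fhl1 (a LIM domain protein that smooth and striated muscle make, 0.70 ± 0.24), Abhd3 (a phospholipase, 0.70 ± 0.51) and Ifi202b (an interferon-induced gene, 0.68 ± 0.19) followed. Ifi202b had a mean level of 4.23, below the array medians of 5.91 to 5.96. On the lower side Acaa1b, a peroxisomal thiolase of fatty acid oxidation, was 7.38, 6.36 and 6.07 against 5.53, 5.43 and 5.91 (-0.98 ± 0.33), or -0.59 without wild-type quercetin replicate 1. Gstk1, the kappa glutathione S-transferase, differed by -0.68 ± 0.24 (-0.39 without the same array) and by -0.75 ± 0.24 on control. Rnase4, a secreted ribonuclease, was 9.32, 9.42 and 9.38 against 8.71, 8.49 and 8.83 (-0.70 ± 0.20). In all 42 genes combined non-overlapping arrays with a difference of at least 0.5, 17 higher and 25 lower.

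Most of the cholesterol synthesis enzymes measured were higher in POR-null mice on quercetin. Of 18 enzymes measured, 15 were higher, 11 of them with an unadjusted p under 0.05 (4.03% of all genes) and 11 without overlap between the genotypes (7.58% of all genes). Those without overlap include Tm7sf2, which differed by only 0.08 ± 0.10. The median difference of the 18 was 0.34, against 0.02 for all genes. On control the median was 0.03, with 11 of 18 higher where 42.9% of all genes were. Without wild-type quercetin replicate 2 the median was 0.34, with 10 enzymes under that p. Without POR-null quercetin replicate 3, the array with the highest levels, it was 0.24, with 7 enzymes higher and 1 lower at that p.

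In the mevalonate part, which builds squalene from acetyl units, all 7 measured enzymes were higher (median 0.36, control 0.08), 6 with an unadjusted p under 0.05. Hmgcs1, which makes HMG-CoA, was 11.04, 11.38 and 11.34 in wild type against 11.36, 11.65 and 11.83 in POR-null (0.36 ± 0.12), with 1 POR-null array inside the wild-type range. Mvk, mevalonate kinase, was 7.20, 6.98 and 7.15 against 7.37, 7.66 and 7.67 (0.46 ± 0.10, adjusted p = 0.34), with no overlap. Pmvk, the next kinase, differed by 0.33 ± 0.09 on quercetin and 0.31 ± 0.09 on control, so its difference was present on both diets. Mvd, the decarboxylase that follows, overlapped, at 7.35, 7.85 and 7.47 against 7.65, 7.94 and 7.74 (0.22 ± 0.12, unadjusted p = 0.0932). Idi1, the isomerase, was 8.50, 8.35 and 8.66 against 8.78, 8.80 and 9.02 (0.36 ± 0.09). Fdps, farnesyl diphosphate synthase, was 8.97, 8.86 and 9.08 against 9.27, 9.36 and 9.64 (0.45 ± 0.11), and was level on control (-0.00 ± 0.11). With Fdft1, Mvk and Pmvk, 5 of the 7 did not overlap.

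Different probe sets of 1 enzyme did not always give the same size. The 3 other probe sets of Fdft1 ran from -0.01 to 0.59 and those of Hmgcs1 from 0.39 to 0.62, while the other probe set of Idi1 differed by 0.61 and that of Fdps by 0.06. In the later part of the pathway the other 2 of Cyp51 differed by 0.16 and 0.22, and those of Lss by 0.04 and 0.31. Averaged over its probe sets, the difference was 0.28 for each of Fdft1, Cyp51 and Lss and 0.26 for Fdps. For Fdft1 the range over its probe sets was wider than that over the 7 enzymes, which ran from 0.22 to 0.56.

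In the part from squalene to cholesterol 8 of 11 enzymes were higher (median 0.24, control 0.01), 5 with an unadjusted p under 0.05 and 6 without overlap. Sqle, squalene epoxidase, was 9.52, 9.39 and 9.46 against 9.61, 9.72 and 10.10 (0.35 ± 0.13). Lss, which closes the sterol rings, was 7.28, 7.56 and 7.36 against 7.78, 7.68 and 8.22 (0.49 ± 0.14). Cyp51, the P450 that demethylates lanosterol, was 8.17, 8.12 and 8.03 against 8.57, 8.41 and 8.71 (0.46 ± 0.12). None of the 3 overlapped between genotypes. Of the enzymes that remove the C4 methyl groups, Msmo1, the oxidase, differed by 0.38 ± 0.13, Nsdhl, the decarboxylating dehydrogenase, by 0.24 ± 0.11 and Hsd17b7, the ketone reductase, by 0.32 ± 0.13, the last with overlap. The late enzymes Ebp (-0.00 ± 0.08), Sc5d (-0.10 ± 0.18) and Dhcr7 (0.01 ± 0.09) and the C14 reductases Tm7sf2 (0.08 ± 0.10) and Lbr (-0.19 ± 0.18) had differences no larger than about their SE. Among these only Tm7sf2 did not overlap, and it is counted in the 6. Whether early and late steps differed from each other was not tested. Without POR-null quercetin replicate 3 the median of this part was 0.11, with 2 enzymes higher and 1 lower at an unadjusted p under 0.05. Without that array Sqle differed by 0.21, Msmo1 by 0.23, Nsdhl by 0.11 and Sc5d by -0.36.

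**Figure D2:**
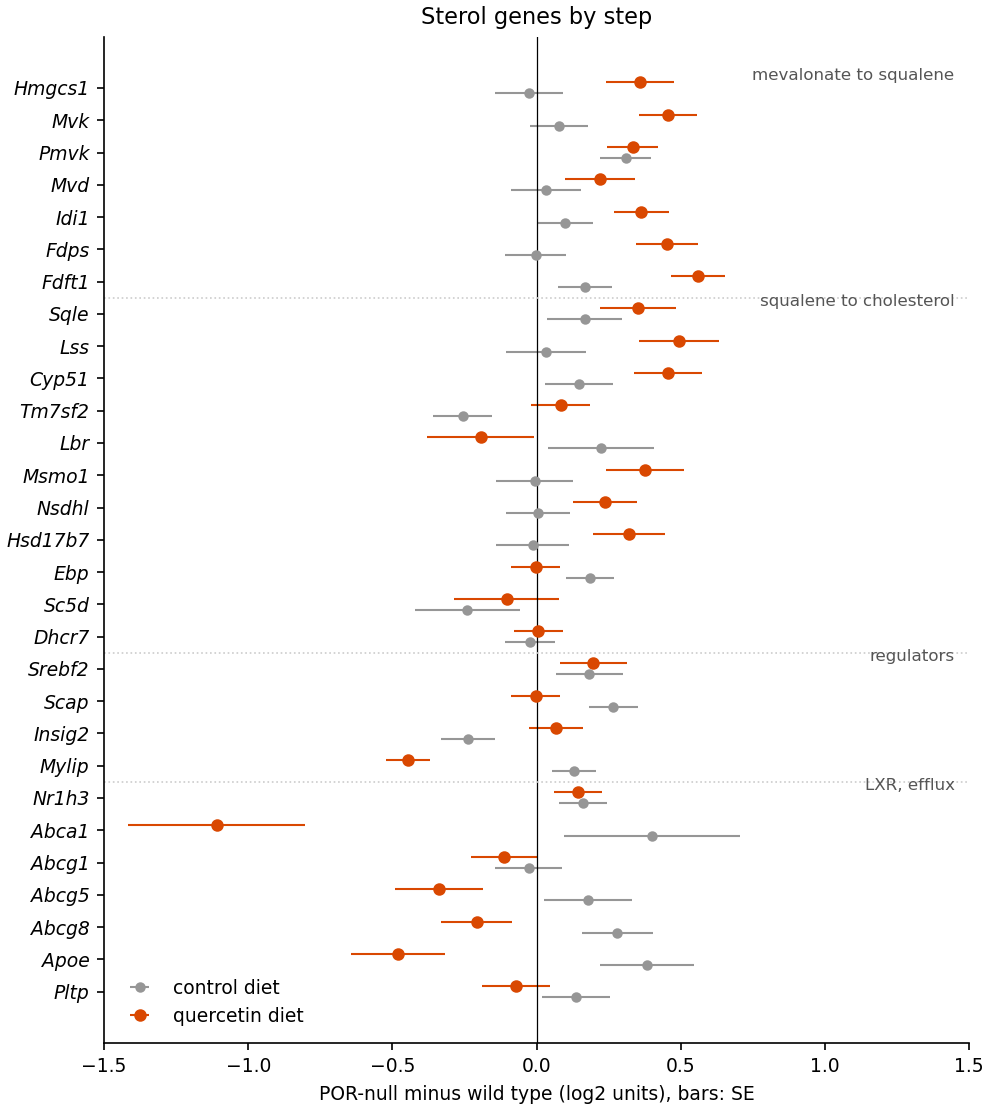
Difference between POR-null and wild type (x axis, log2 units, bars are SE) for sterol enzymes in pathway order, genes labelled regulators (Srebf2, Scap, Insig2 and Mylip), and LXR and efflux genes (y axis), on quercetin (orange) and control (grey). On quercetin the enzymes from Hmgcs1 to Cyp51 lie right of 0 and Mylip, Abca1, Apoe, Abcg5 and Abcg8 left of it, whereas on control the latter 5 lie right of 0.

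The promoters of these enzymes were searched because most of them were higher together and they are known targets of SREBP2, which acts beside the factor NF-Y. The 250 bases before to 50 after each start (RefSeq, GRCm38.p6) were searched on both strands for CCAAT, the box that NF-Y binds, and for TCACNCCAC, a sterol regulatory element core. The table of promoters held 15 of the 18 enzymes (all but Fdft1, Fdps and Sqle), with 18 promoters. CCAAT was found in 15 of the 18 (83.3%), against 37.4% of all 32851 promoters, and at least 2 copies in 10 of 18 (55.6%), against 11.7%. All 15 enzymes had the box in at least 1 promoter. It was thus also present in Ebp, Sc5d, Dhcr7, Tm7sf2 and Lbr, whose differences were no larger than about their SE. TCACNCCAC was found in 1 of 18 (5.56%), against 1.24% of all promoters. The bases just before the start are printed 5′ to 3′ on the gene's strand, with these letters in capitals and ATTGG standing for CCAAT on the other strand. Mvk held 5 boxes in 200 bases, Idi1 2 and Cyp51 1 in 100, and Hmgcs1 both motifs in 150. All promoters printed belong to enzymes with higher values in POR-null.
Mvk (chr5:114444069-114444268, + strand): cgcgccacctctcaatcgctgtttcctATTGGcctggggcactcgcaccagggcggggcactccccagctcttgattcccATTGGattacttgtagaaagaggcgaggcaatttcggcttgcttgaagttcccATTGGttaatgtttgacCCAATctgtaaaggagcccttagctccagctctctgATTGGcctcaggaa
Idi1 (chr13:8885506-8885605, + strand): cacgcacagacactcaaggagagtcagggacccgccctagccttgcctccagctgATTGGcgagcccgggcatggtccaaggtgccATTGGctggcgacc
Cyp51 (chr5:4104698-4104797, - strand): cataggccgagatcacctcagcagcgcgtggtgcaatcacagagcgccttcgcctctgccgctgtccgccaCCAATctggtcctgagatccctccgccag
Hmgcs1 (chr13:119690201-119690350, + strand): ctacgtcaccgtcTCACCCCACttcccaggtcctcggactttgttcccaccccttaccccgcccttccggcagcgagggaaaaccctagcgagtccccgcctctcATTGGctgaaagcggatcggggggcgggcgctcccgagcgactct

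A match of letters is a description of these windows and not a bound site. At least 1 CCAAT box stood in 3 of 10 promoters of the LXR and efflux genes (30%), 3 of 11 of the bile acid genes (27.3%) and 6 of 20 of the B lineage genes (30%). These were near or below the share of all promoters. For the MHC class II genes it was 5 of 7 (71.4%), so a high share with at least 1 box was not particular to the sterol enzymes. At least 2 copies stood in 10%, 9.09% and 15% of the first 3 and in 1 of 7 (14.3%) of the MHC class II promoters, against 11.7% of all. TCACNCCAC was in 1 of the 11 bile acid promoters (9.09%) and in none of the LXR, B lineage or MHC class II ones. ATTTGCAT, the octamer read by B cell factors, was in 1 of the 20 B lineage promoters (5%, against 1.74% of all). The inverted repeat read by FXR, AGGTCA followed by any base and TGACCT, was in none of the 11 bile acid promoters and in 0.00913% of all.

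Of 8 measured genes of sterol sensing and uptake 5 were higher (median 0.06, control 0.03), where 56.1% of all genes were. Only Mylip had an unadjusted p under 0.05, and it was lower (1 of 8, against 3.41% of all genes). Srebf2, which encodes SREBP2, differed by 0.20 ± 0.12 on quercetin and 0.18 ± 0.12 on control, Scap, its escort, by -0.00 ± 0.08, and Insig2, which retains both, by 0.07 ± 0.09. Scarb1, the HDL receptor, differed by 0.14 ± 0.14, Npc2 by -0.09 ± 0.08 and Stard4 by 0.10 ± 0.11. The other probe set of Stard4 differed by 0.29, without overlap. Mylip was 7.57, 7.75 and 7.64 in wild type against 7.12, 7.19 and 7.31 in POR-null, a difference of -0.45 ± 0.08 (adjusted p = 0.141), with all 3 POR-null arrays below both control groups as well (7.41 to 7.67). Without wild-type quercetin replicate 2 it was -0.40.

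The LXR and sterol efflux genes were mostly lower in POR-null mice on quercetin. Of 7 measured, 6 were lower and 4 did not overlap (5.36% of all genes), with 3 at an unadjusted p under 0.05 (3.41% of all genes) and a median of -0.21. On control 6 of the 7 were higher and the median was 0.18. The median was -0.20 without wild-type quercetin replicate 2, and without POR-null quercetin replicate 2, 1 of the 7 was lower at that p. Abca1, the exporter of cholesterol to apolipoprotein A-I, was 6.79, 6.58 and 6.93 in wild type against 5.77, 5.66 and 5.54 in POR-null (-1.11 ± 0.31, adjusted p = 0.466). The control arrays spread from 5.46 to 7.04, wider than the gap between the quercetin groups. Its other 2 probe sets differed by -0.10 and -0.09, so the brightest probe set alone carried the difference. Apoe, apolipoprotein E, was 6.79, 6.84 and 7.18 against 6.47, 6.14 and 6.76 (-0.48 ± 0.16), and ran the other way on control (0.38 ± 0.16). Abcg5 and Abcg8, which together return sterols to the gut lumen, differed by -0.34 ± 0.15 and -0.21 ± 0.12 on quercetin and by 0.18 ± 0.15 and 0.28 ± 0.12 on control, and neither overlapped on quercetin. Abcg1 (-0.11 ± 0.12) and Pltp (-0.07 ± 0.12) overlapped, and Nr1h3, which encodes LXR alpha, was the 1 member with a higher value (0.14 ± 0.08).

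Of 11 genes of bile acid handling measured, 8 were lower in POR-null on quercetin, with a median of -0.09 (control 0.13). The same 4 genes, Fgf15, Fabp6, Slc51a and Nr5a2, had an unadjusted p under 0.05 and no overlap between the genotypes, all of them lower (3.41% and 5.36% of all genes). Markers of the ileal segment, 9 genes of which 4 are also bile acid genes, were lower in 6 of 9 (median -0.05), and their mean centred level was -0.01, 0.23 and 0.23 in wild type against -0.02, -0.14 and -0.19 in POR-null. Of 9 markers of proximal intestine 7 were higher (median 0.09). The part of either in the result was not tested. Fgf15 had the largest difference of all 12393 genes. It stood at 7.01, 8.88 and 7.77 in wild type against 5.56, 5.36 and 5.70 in POR-null, where the median level of all probe sets was 5.91 to 5.96 on an array. All 3 POR-null arrays were thus below that median, and the deposited values used here hold no detection calls. The difference was -2.35 ± 0.44 (adjusted p = 0.181), and it was -1.85 without wild-type quercetin replicate 2, the highest array. On control the wild-type arrays were 6.64, 6.63 and 6.63 and the POR-null ones 5.31, 7.20 and 6.85, so 1 POR-null control array was as low as those on quercetin. Fabp6, the cytosolic bile acid carrier, was 12.67, 12.56 and 12.75 against 12.05, 12.13 and 12.38 (-0.47 ± 0.12), and -0.20 ± 0.12 on control. Slc51a, a chain of the basolateral bile acid exporter, was 12.20, 12.14 and 12.39 against 11.98, 11.87 and 11.94 (-0.31 ± 0.13).

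Of the receptors and their partners, Nr5a2, which encodes LRH-1, was 7.97, 8.10 and 7.97 against 7.78, 7.60 and 7.74 (-0.31 ± 0.09), but its other 3 probe sets ran from -0.18 to 0.34. Nr1h4, which encodes FXR, differed by -0.06 ± 0.12 on quercetin and 0.58 ± 0.12 on control. Nr0b2, the FXR-induced repressor SHP, differed by -0.08 ± 0.13 and Rxra, the partner receptor, by -0.09 ± 0.10. Vdr, the vitamin D receptor, which also binds a bile acid, differed by 0.07 ± 0.09. Slc10a2, the apical uptake transporter, spread widely in both groups (5.32, 6.09 and 7.28 against 7.52, 7.50 and 5.99) and differed by 0.77 ± 0.50. The exporters Abcc3 (0.20 ± 0.11) and Abcc2 (-0.15 ± 0.31) overlapped between the genotypes. The median of the 11 genes was -0.07 without wild-type quercetin replicate 2 and -0.01 without POR-null quercetin replicate 2.

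**Figure D3:**
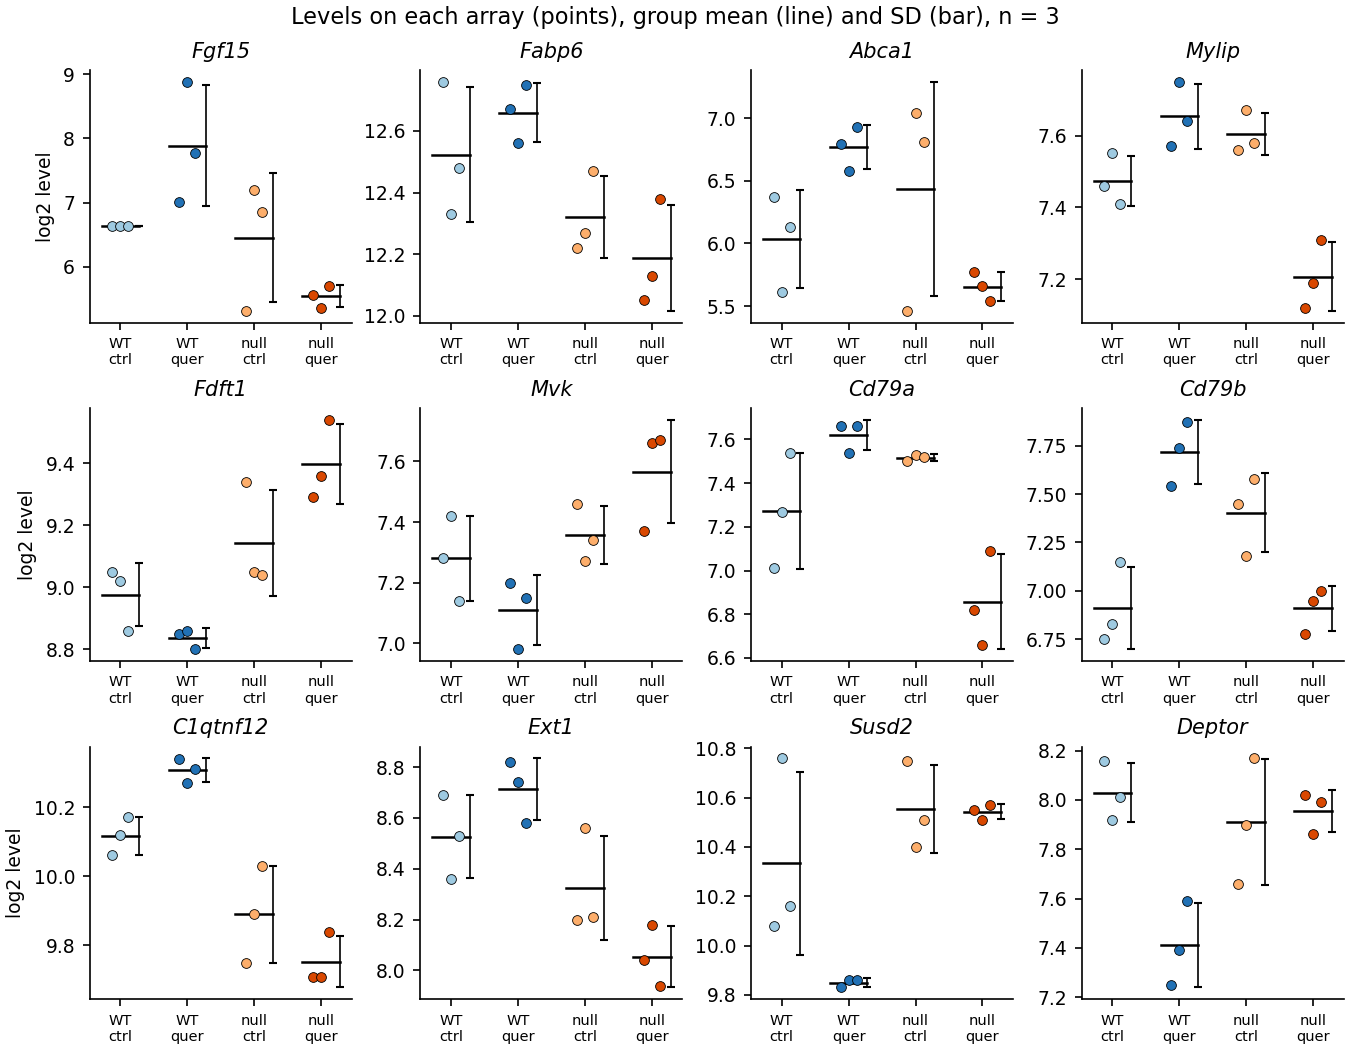
Log2 level (y axis) of 12 genes on each of the 12 arrays (points), by genotype and diet (x axis; WT wild type, null POR-null), with the mean as a line and the SD as a bar, n = 3. For Fgf15, Abca1, Mylip, Cd79a and Cd79b the 3 POR-null quercetin arrays lie below the 3 wild-type quercetin arrays, and for Fdft1, Mvk, Susd2 and Deptor they lie above.

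B lineage genes were lower in POR-null mice on quercetin. Of 22 measured, 21 were lower where 43.4% of all genes were, 12 at an unadjusted p under 0.05 (3.41% of all genes) and 10 without overlap (5.36% of all genes), with a median of -0.26 and no member higher at that p. On control the median was 0.03 and 13 of 22 were higher. Counts at that p were 11 of 22 without wild-type quercetin replicate 2 and 6 of 22 without wild-type quercetin replicate 3, the array with the highest B lineage levels. In bulk tissue, fewer B cells and less of these RNAs per cell cannot be told apart.

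Cd79a and Cd79b encode the signalling chains of the B cell receptor. Cd79b was 7.54, 7.74 and 7.87 in wild type against 6.78, 6.95 and 7.00 in POR-null (-0.81 ± 0.13, adjusted p = 0.132). Its control levels ran the other way, 6.75, 6.83 and 7.15 against 7.45, 7.18 and 7.58 (0.49 ± 0.13). Cd79a was 7.66, 7.54 and 7.66 against 6.82, 6.66 and 7.09 (-0.76 ± 0.12, adjusted p = 0.132), with 0.24 ± 0.12 on control. Without wild-type quercetin replicate 2 the differences were -0.80 and -0.80. Ms4a1, the surface antigen CD20, was 6.97, 7.51 and 7.66 against 6.65, 6.63 and 6.69 (-0.72 ± 0.17), and -0.44 by its other probe set. Cxcr5, the receptor that brings B cells into follicles, was low on the arrays but did not overlap, at 5.07, 5.06 and 5.17 against 4.81, 4.66 and 4.79 (-0.35 ± 0.07). Cd83, an activation marker, differed by -0.37 ± 0.11. Among transcription factors and co-activators, Pou2af1 was 5.70, 6.13 and 6.44 against 5.44, 5.38 and 5.63 (-0.61 ± 0.20), whereas Pax5, which fixes B cell identity, was the 1 member with a higher value (0.16 ± 0.08). Ighm, the heavy chain of IgM, differed by -0.10 ± 0.07, and its other 10 probe sets ran from -0.71 to 0.16.

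Genes of the follicle and its overlying M cells were also lower in 10 of 11 (median -0.23, control 0.06), 3 of them at an unadjusted p under 0.05 (3.41% of all genes; 1 of 11 without POR-null quercetin replicate 2) and 1 without overlap, a share near the 5.36% of all genes. Clu, clusterin, which M cells and follicular dendritic cells make, was 8.41, 8.50 and 8.47 against 8.16, 7.78 and 8.05 (-0.46 ± 0.13), and 0.29 ± 0.13 on control. Ltb, lymphotoxin beta, which also counts in the B lineage list, differed by -0.32 ± 0.14, Gp2, an M cell receptor, by -0.24 ± 0.10, Ccl20, which draws B cells to the follicle, by -0.24 ± 0.11, and Cxcl13, the ligand of CXCR5, by -0.23 ± 0.11. Ccl20 differed by -0.14 without wild-type quercetin replicate 2, and Cxcl13 by -0.12 without POR-null quercetin replicate 2. The other probe set of Cxcl13 differed by -0.80.

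Genes of MHC class II presentation were lower in 8 of 9 (median -0.44, control 0.08), 5 at an unadjusted p under 0.05 (3.41% of all genes) and 2 without overlap (5.36% of all genes). H2-Eb1 was 10.57, 10.70 and 10.92 against 9.81, 10.36 and 10.43 (-0.53 ± 0.19), H2-Aa differed by -0.51 ± 0.24, H2-Ab1 by -0.53 ± 0.24, Cd74, the invariant chain, by -0.45 ± 0.20, and H2-DMa, which loads peptide, by -0.44 ± 0.20. POR-null quercetin replicate 1 was the lowest array for each of these 5. Without it the median was -0.25 and no member reached that p, and none did without wild-type quercetin replicate 3. Without wild-type quercetin replicate 2 the median was -0.33, with 2 members at that p, and 2 reached it without POR-null quercetin replicate 3.

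Genes of other immune cells centred nearer 0, and their difference from the B lineage was not tested. The 19 T cell genes had a median of 0.04 with 14 higher, but -0.04 with 6 higher without POR-null quercetin replicate 3, and -0.02 with 9 higher without wild-type quercetin replicate 1. Cd3e, a chain of the T cell receptor complex, differed by 0.12 ± 0.11. Cd6, a T cell co-receptor, was 5.64, 5.67 and 5.69 against 5.84, 5.97 and 5.97 (0.26 ± 0.07). Plasma cell and IgA genes had a median of 0.05 (7 of 12 higher): Igha, the IgA heavy chain, was 11.22, 10.66 and 11.10 against 10.91, 10.94 and 11.72 (0.20 ± 0.24), and Jchain, which joins IgA dimers, differed by 0.14 ± 0.28. Sdc1, syndecan 1, which epithelium also makes, was lower without overlap (-0.30 ± 0.07). Mast cell genes were higher in 9 of 11 (median 0.11), where 56.1% of all genes were. On control 0 of 11 were higher (median -0.20), where 42.9% of all genes were. The mean levels of these 11 genes ran from 3.88 to 6.55, where array medians were 5.91 to 5.96. Tpsb2, a mast cell tryptase, was 5.87, 5.74 and 5.84 against 5.96, 6.08 and 6.04 (0.21 ± 0.09), and Kit, the receptor for stem cell factor, differed by 0.25 ± 0.10. Averaged over their probe sets, these differences were 0.12 for Tpsb2 and 0.16 for Kit. The 22 interferon-induced genes had a median of 0.04 with none at an unadjusted p under 0.05.

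**Figure D4:**
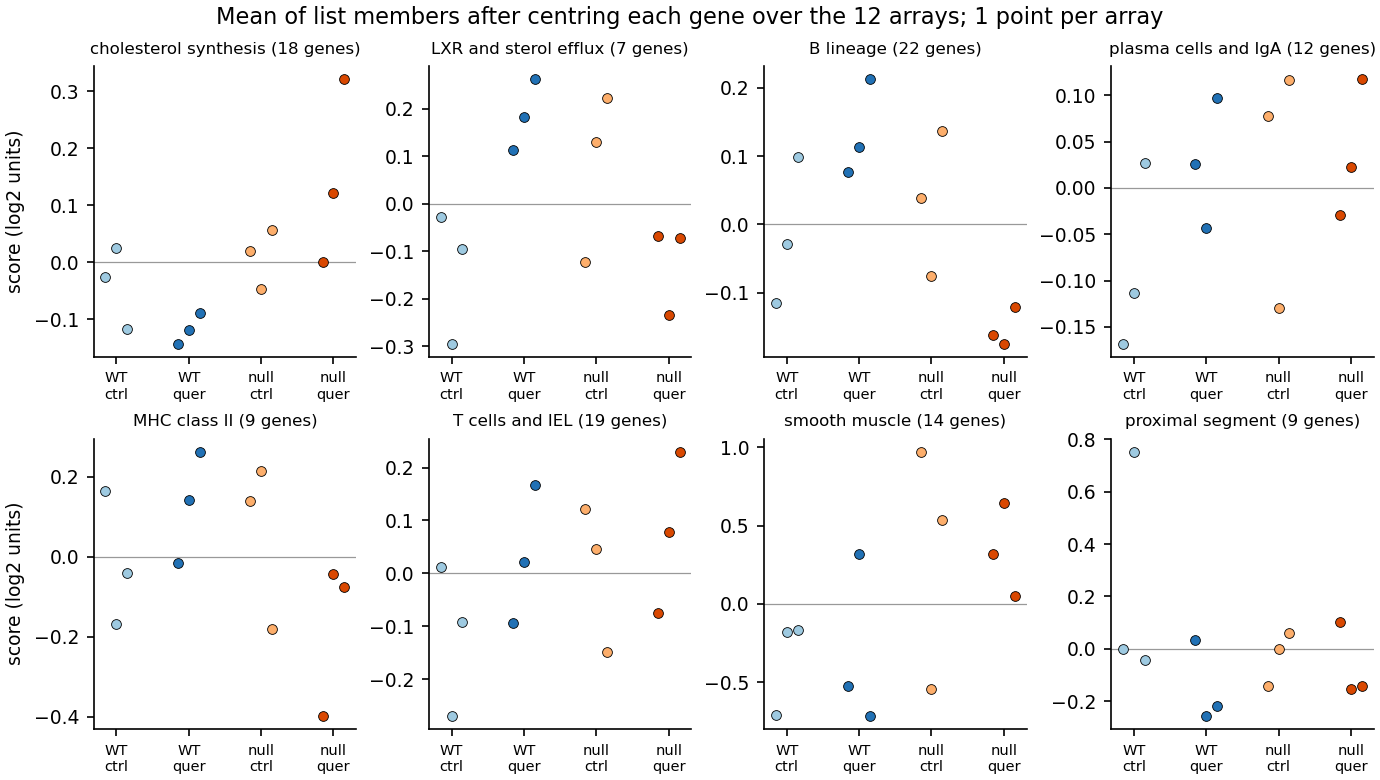
Mean log2 level of the members of 8 gene lists after centring each gene over the 12 arrays (y axis), 1 point per array, by genotype and diet (x axis). On quercetin the 3 POR-null arrays lie above the 3 wild-type arrays for cholesterol synthesis and below them for LXR and efflux, the B lineage and MHC class II, while T cell, plasma cell and smooth muscle scores overlap.

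Genes of fatty acid breakdown and respiration were mostly lower by small amounts. Of 25 fatty acid oxidation genes 21 were lower (median -0.13, control 0.05), 2 of them at an unadjusted p under 0.05 (Acaa1b and Acadl, where 3.41% of all genes did) and 6 without overlap (5.36% of all genes). The count at that p was 0 without wild-type quercetin replicate 1 and 9 without wild-type quercetin replicate 3. Acadl, the long-chain acyl-CoA dehydrogenase, was 10.24, 9.80 and 10.13 against 9.67, 9.72 and 9.73 (-0.35 ± 0.12), with -0.52 ± 0.12 on control, and its difference averaged over probe sets was -0.14. Decr2, a peroxisomal reductase, was the member with the largest higher value (0.26 ± 0.12). Acads, the short-chain dehydrogenase, differed by -0.16 ± 0.08 and Slc25a20, which carries acylcarnitine into mitochondria, by -0.26 ± 0.13, each -0.08 without wild-type quercetin replicate 2. Of 70 genes of oxidative phosphorylation 62 were lower, yet the median was -0.06, 5 reached that p (3.41% of all genes) and 10 did not overlap (5.36% of all genes). The count at that p was 1 without wild-type quercetin replicate 1 or 2 and 2 without POR-null quercetin replicate 1. Ndufc2 of complex I (-0.22 ± 0.08), Atp5g2 (-0.17 ± 0.06) and Atp5e (-0.18 ± 0.08) of ATP synthase were among those 5, although Atp5g2 averaged over its probe sets differed by -0.04. On control 19 of the 70 were higher and the median was -0.045, close to that on quercetin.

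The drug-metabolising P450 genes, whose enzymes depend on POR, were higher in 14 of 28, with a median of 0.01. On control 6 of the 28 were higher, with a median of -0.10. There were 4 higher (4.03% of all genes) and 0 lower at an unadjusted p under 0.05 on quercetin. Without wild-type quercetin replicate 1, 22 of 28 were higher with 5 at that p, and without POR-null quercetin replicate 1, 12 were higher with 1 at that p. In the same fits 7194 and 6580 of the 12393 genes were higher, 564 and 298 of them at that p. Cyp3a25 was 9.15, 8.79 and 9.05 against 9.22, 9.60 and 9.60 (0.48 ± 0.17), and 0.73 ± 0.17 on control. Cyp2c29 (0.39 ± 0.16), Cyp2d9 (0.30 ± 0.12) and Cyp2d10 (0.22 ± 0.08) were the other 3. Cyp3a11, a major P450 of mouse gut and liver, varied widely within wild type: 10.83, 8.86 and 8.94 against 10.49, 10.40 and 10.69 (0.98 ± 0.49), with -0.60 ± 0.49 on control. Cyp2b10, a target of the receptor CAR, was 8.31, 6.70 and 5.84 against 8.03, 8.23 and 7.73 (1.05 ± 0.58) and, chosen after its values were seen, ran the other way on control (-1.15 ± 0.58). For both genes wild-type quercetin replicate 1 was above the POR-null range and the other 2 wild-type arrays were below it. Of 16 partners of P450s and haem synthesis genes 0 reached that p: Cyb5a, cytochrome b5, differed by -0.19 ± 0.11, Cyb5b, its mitochondrial form, by 0.19 ± 0.10 and Cyb5r1, a b5 reductase, by 0.18 ± 0.12. Glutathione S-transferases (12 of 20 higher, median 0.01), conjugating enzymes (9 of 15, 0.04) and NRF2 targets (10 of 21, -0.05) centred near 0.

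Of 15 clock genes 10 were higher, where 56.1% of all genes were, and 5 lower (median 0.12, control 0.03). Without overlap 5 were higher (7.58% of all genes) and 2 lower (5.36%). Of those named here, Dbp and Arntl were chosen after their values were seen, and the rest of the list is not named. The output genes and repressors Nr1d1 (7.43, 7.07 and 7.81 against 7.82, 7.87 and 8.43, 0.60 ± 0.25), Nr1d2 (0.81 ± 0.37), Per3 (0.25 ± 0.11), Tef (0.25 ± 0.13) and Dbp (5.39, 5.50 and 5.80 against 5.85, 5.99 and 6.32, 0.49 ± 0.25) had higher values, although Per3 averaged over its probe sets differed by 0.10. Arntl, which encodes the clock activator BMAL1, was 6.89, 6.79 and 6.86 against 6.65, 6.54 and 6.28 (-0.36 ± 0.20), and Bhlhe40, a repressor of the clock, differed by -0.35 ± 0.17 on quercetin and -0.61 ± 0.17 on control. Without wild-type quercetin replicate 2 the value for Bhlhe40 on quercetin was -0.22. Leaving out either replicate 2 of wild type or replicate 3 of POR-null on quercetin took the count of clock genes higher at an unadjusted p under 0.05 from 3 (4.03% of all genes) to 0. The hour at which tissue was taken from each mouse is not given in the sources used here.

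**Figure D5:**
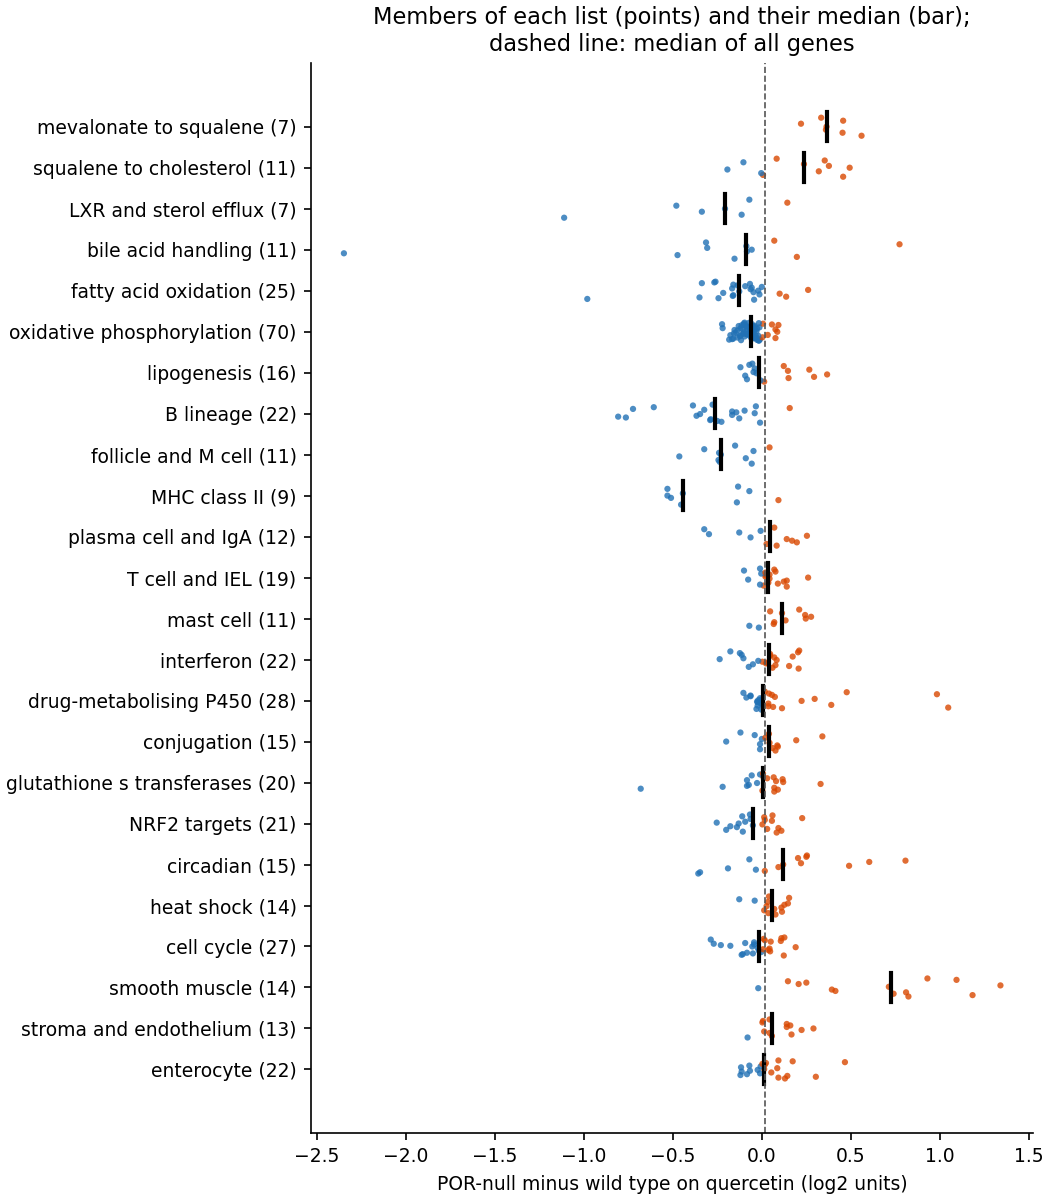
Difference between POR-null and wild type on quercetin (x axis, log2 units) for the members of 24 gene lists (points; orange above 0, blue below; number measured in brackets), with the list's median as a bar and the median of all genes, 0.02, as a dashed line. Medians of the 2 cholesterol synthesis lists and of smooth muscle lie furthest right, and those of MHC class II, B lineage, follicle and LXR furthest left.

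The genotype difference on quercetin was set against that on control, which rests on 6 other arrays. No probe set passed an adjusted p of 0.05 for the interaction (0 of 22626, 0%, smallest adjusted p 0.0917), with 2332 at an unadjusted p under 0.05. Cd79b had the smallest p, with an interaction of -1.30 ± 0.18 (unadjusted p = 4.38e-06), followed by Cd79a at -1.01 ± 0.17 among the genes named. Mylip (-0.58 ± 0.11), Nr5a2 (-0.54 ± 0.13), Apoe (-0.86 ± 0.23), Abca1 (-1.51 ± 0.43) and Fgf15 (-2.17 ± 0.62) also had unadjusted p under 0.05, as had Deptor in the other direction (0.67 ± 0.17). Most genes named were chosen by their difference on quercetin, which is a part of the interaction. Their interaction p-values are thus partly set by that choice and are no separate support. On quercetin the other probe sets of Abca1 differed by -0.10 and -0.09, and those of Nr5a2 by -0.18 to 0.34. At that p the B lineage list counted 9 of 22 genes with a lower difference on quercetin, the LXR and efflux list 4 of 7 and the follicle list 5 of 11, against 4.38% of all genes. The cholesterol synthesis enzymes counted 6 of 18 with a higher difference on quercetin, the mast cell genes 5 of 11 and the drug-metabolising P450 genes 5 of 28, against 6.75% of all genes. Wild-type control replicate 2, which enters the control side, lay apart from the other arrays on the first principal component (25.57, others up to 10.8), and had a score of 0.75 for proximal intestine genes, where the other 11 arrays were at 0.10 or lower.

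Genes whose arrays did not overlap were compared between the diets. Of the 940 genes higher without overlap on quercetin, 39 (4.15%) were also higher without overlap on control, a property of 5.04% of all genes, and 85 (9.04%) were lower there, against 8.84%. Of the 664 lower on quercetin, 42 (6.33%) were lower on control, against 8.84%, and 46 (6.93%) higher, against 5.04%. Of the genes separated on control, the 39 and 46 were 6.24% and 7.36% of those higher, and the 85 and 42 were 7.76% and 3.84% of those lower, where 7.58% of all genes were higher and 5.36% lower on quercetin. Prss30, Lamb3, Pmvk, Acadl and Gstk1, named above, had differences of like sign on both diets, and Cd79b, Ada and Apoe of opposite sign.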

How the data were processed

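Affymetrix 430A arrays measured total RNA of ileal scrapings in 4 groups of 3 arrays. Expression levels in log2 units, 1 per probe set and array, were deposited by the authors and used unaltered. They ran from 2.66 to 14.04, the range from which their scale is inferred, with array medians of 5.91 to 5.96. MAS5 and RMA are listed in the submitters' processing notes, without role or version. Array controls (64 of 22690 probe sets) were dropped. The platform annotation gave 1 symbol to 20380 of the 22626 tested, several to 691 and none to 1555, and 20351 were matched by gene ID to RefSeq (GRCm38.p6).

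Group means over the 12 arrays were estimated by limma 3.58.1 under R 4.3.3 (lmFit, contrasts and eBayes, with 8 residual degrees of freedom), by a script that was tested on simulated data. P-values measure the spread between pools of 3 mice, and nothing in the labels ties pools to litters or days. The comparison and its 44 gene lists (722 names, 625 measured) were chosen with earlier results of these data known, and no list was tested. Named are the 12 genes of smallest p and the 8 largest non-overlapping differences in each direction (predicted genes left out), up to 5 members of smallest p of each list described, and all measured members of the sterol synthesis and bile acid lists. Abcg1, Pltp, Scap, Insig2, Pou2af1, Pax5, Ighm, Igha, Jchain, Dbp, Arntl and Cyp2b10 were added after their values were seen. Alternatives were quantile normalization, median centring, filters on dim probe sets, eBayes with trend, array weights, a replicate block, only 6 arrays, the mean of a gene's probe sets, a threshold of 0.1 and leaving out each array. Figures used Python 3.11.15 and matplotlib 3.10.9.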

Additional observations from a re-analysis of the deposited data

How the results depend on the processing

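No probe set passed an adjusted p of 0.05 on quercetin under the main settings, and 5 did with a variance trend and robust eBayes, 2 with the replicate number as a block (replicate block), 2 with only the 6 quercetin arrays and 0 to 1 when 1 array was left out. The block calls were Cd79b and a second probe set of Clu. The interaction gave 2, 3, 2 at an adjusted p of 0.1, and 0 to 9, the 9 without wild-type control replicate 1. Same-numbered quercetin arrays had correlations of 0.002 to 0.162 between their deviations, so the numbers were not taken to pair the arrays. Without probe sets below the median level, with fewer tested, 833 had an unadjusted p under 0.05 and 1492 did not overlap. Leaving out 1 array gave 1126 to 1862 and, with 2 arrays in a group, 4395 to 5833. The MHC class II median ran from -0.58 to -0.25. Of 44 list medians 22 changed sign in some setting, 21 of them with 1 array left out, each with a main median within 0.06 of 0. Of 118 genes 11 did, each with a main difference smaller than its SE. The NRF2 target median was 0.0133, Insig2 -0.0856 and Sc5d 0.0083 with all probe sets of a gene averaged. Quantile normalization gave Ebp 0.0015 and Scap 0.0097, and Dhcr7 was -0.02 with median centring and -0.0013 with array weights. With 1 array left out, Abcc2 ran from -0.3717 to 0.1033, Dhcr7 from -0.0333 to 0.0817, Ebp from -0.0667 to 0.0683, Igha from -0.0683 to 0.3367 and Jchain from -0.1633 to 0.2967. Nr0b2 ran from -0.1967 to 0.0733, Pltp from -0.205 to 0.035, Rxra from -0.1933 to 0.0317, Sc5d from -0.36 to 0.12 and Scap from -0.0817 to 0.0783. The cause was not tested. With 3 arrays a group, a difference had a median SE of 0.0886 log2 units, and 0.125 for the interaction.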
